A study of Homo sapiens with 8 samples.

Results

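FKBP14, DDAH1, MMGT1 and CELF2 were the genes other than BIRC3 with the deepest falls 24 h after siRNA against RND3 in U87 cells, a human glioblastoma line. They were selected on the size of that fall, so their values at 24 h are given below as a description and carry no test. Genes were ranked by their brightest probe at 24 h, provided that it passed an adjusted p of 0.05 in limma, that all 6 arrays of that time measured it well above background and that the groups did not overlap. These 4 genes were measured by 5 of the 42405 probes on the array, with 1 probe each for FKBP14, DDAH1 and MMGT1 and 2 for CELF2, against 19483 gene symbols named in all. The question was whether their fall stayed constant or grew between 24 h and 48 h, set beside that of RND3, the gene the siRNA was made against.

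The study profiled total RNA from U87 cells on 8 Agilent arrays with 1 colour (Cy3). At 24 h there were 3 arrays of cells given non-silencing siRNA (siControl, NSC in the labels) and 3 of cells given siRNA against RND3 (siRND3, labelled RhoE KD, after the other name of RND3), and at 48 h there was 1 array of each. All groups were the same cell line, reverse-transfected with the same lipid reagent, so the siControl cells also carried an siRNA. RND3 was targeted with either of a pair of siRNAs, and the one used for an array is not given in the sources used here. Nothing says that replicates came from separate transfections, so p-values measure the spread between these arrays, which may be technical. The 48 h comparison has no replicate, and its tests assume that the spread seen at 24 h holds for the lone arrays too. All 8 arrays lay on 1 slide, siRND3 in row 1 and siControl in row 2, and the effect of the row cannot be told apart from that of the siRNA. The 24 h arrays lay in columns 1 to 3 and both 48 h arrays in column 4, so time and column cannot be told apart either.

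The share of probes well above background ran from 68.3% to 70.7% over the arrays. The 7 probes of VIM, NES, CD44, S100A6, TNC and FN1, genes that glioblastoma cells of this kind express, were well above background on all 8 arrays. Of 12 probes for markers of leukocytes (PTPRC), endothelium (PECAM1), epithelium (EPCAM), neurons (RBFOX3) and oligodendrocytes (MBP), 4 were above background on no array, among them that of RBFOX3. A further 5 were above it on all 8 arrays, at log2 values between 4.34 and 6.50. CD44 was lower in siRND3 cells at 24 h (-0.58, limma adjusted p 0.00721), as was 1 of the PECAM1 probes (-0.99, adjusted p 0.0216), while 1 of the NES probes was higher (0.41, adjusted p 0.0472), and the part of these in the results below was not tested. Values are log2 of the background-corrected spot intensity after quantile normalisation over the 8 arrays, and fewer transcripts per cell and fewer cells with the transcript cannot be told apart in such bulk RNA.

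The 4 genes belong to different systems. FKBP14 encodes a peptidyl-prolyl isomerase of the endoplasmic reticulum (ER) that helps collagens fold. DDAH1 encodes a hydrolase that clears asymmetric dimethylarginine (ADMA), a natural inhibitor of nitric oxide synthases. MMGT1 encodes EMC5, a subunit of the ER membrane complex (EMC), which inserts membrane proteins into the ER membrane, and was first described as a magnesium transporter. CELF2 encodes an RNA-binding protein that sets splice-site choice and messenger stability. RND3 is a small protein that stays bound to GTP and acts on the actin cytoskeleton. An siRNA guides Argonaute protein to cut the transcript it was made against, so the target's own level is the usual yardstick of a knockdown.

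The genes lie on different chromosomes of GRCh38.p14. FKBP14 spans chr7:30005923-30026702, DDAH1 spans chr1:85318485-85578200, MMGT1 spans chrX:135960588-135973988, CELF2 spans chr10:10462550-11336675 and RND3 spans chr2:150468193-150487695. The RefSeq promoter table held DDAH1, CELF2 and RND3. The 250 bases before their RefSeq start are shown, on GRCh38.p14 at chr1:85578201-85578450 (minus strand), chr10:10462300-10462549 (plus strand) and chr2:150487696-150487945 (minus strand). Whether these bases bear on any of the falls was not tested. Each runs 5′ to 3′ in the direction of the gene, and capitals mark any match to the motifs named below on either strand.

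DDAH1: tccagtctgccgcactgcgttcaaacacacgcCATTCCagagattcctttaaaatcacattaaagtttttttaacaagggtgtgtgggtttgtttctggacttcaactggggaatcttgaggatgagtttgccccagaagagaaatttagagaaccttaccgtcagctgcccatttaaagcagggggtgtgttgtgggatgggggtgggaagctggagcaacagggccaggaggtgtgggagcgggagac
CELF2: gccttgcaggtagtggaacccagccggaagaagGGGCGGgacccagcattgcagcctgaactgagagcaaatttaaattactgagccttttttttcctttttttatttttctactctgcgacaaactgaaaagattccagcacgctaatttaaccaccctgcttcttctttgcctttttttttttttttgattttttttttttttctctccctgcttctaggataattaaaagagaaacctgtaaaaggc
RND3: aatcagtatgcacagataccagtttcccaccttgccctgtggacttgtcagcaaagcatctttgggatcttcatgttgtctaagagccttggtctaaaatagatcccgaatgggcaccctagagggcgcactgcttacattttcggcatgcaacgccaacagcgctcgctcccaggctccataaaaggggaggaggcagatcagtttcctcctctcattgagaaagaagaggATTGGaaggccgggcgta

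The motifs TGACTCA for AP-1, TGACGTCA for CRE factors, CCAAT for the CCAAT box, GGGCGG for the GC box, GGAATG for TEAD and CACGTG for the E box were searched on both strands over 300 bases, from 250 before to 50 after the start. The window of DDAH1 held GGAATG at position -218 on the minus strand, counted back from the start. That of CELF2 held GGGCGG at -217 and GGAATG at 3 bases past the start on the minus strand, which lies beyond the bases shown. GGAATG occurs in 14.0% and GGGCGG in 45.0% of all 35116 promoters in the table. The window of RND3 held CCAAT on the minus strand at -18 and at 43 past the start, a motif that occurs in 34.6% of all promoters. None of the 3 windows held AP-1, CRE or E box letters, which occur in 4.95%, 1.85% and 7.26% of all promoters. These are matches of letters only. Each window stands at the outer end of the gene's span, and whether the transcripts read by the probes start there was not checked.

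RND3 itself was measured by 1 probe (A_23_P142849, 10 spots). Its log2 values were 11.88, 11.91 and 11.90 on the siControl arrays and 10.12, 10.18 and 10.42 on the siRND3 arrays at 24 h, and 11.48 and 9.84 on the single arrays at 48 h. The log2 level of RND3 fell by 1.66 at 24 h (SE 0.10, n = 3 and 3, adjusted p 0.000345 in limma), which leaves 31.7% of the siControl level (95% interval 27.1% to 37.2%). Over all 28759 probes tested 11.6% passed at 24 h, 6.38% as lower and 5.27% as higher. At 48 h the difference was -1.65 (limma adjusted p 0.00140), with 31.9% left, where 19.0% of all probes passed, 9.19% as lower and 9.77% as higher. The fall of RND3 was thus about as deep at both times, with a change between them of 0.0064 (95% interval -0.45 to 0.46). RND3 was lower at 48 h than at 24 h within each treatment, with differences of -0.41 in siControl and -0.40 in siRND3 cells, and neither passed the threshold (adjusted p 0.151 and 0.118).

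FKBP14 had the deepest fall of the 4 genes at 24 h. Its probe (A_23_P215341, a single spot) read 9.89, 9.98 and 9.79 on the siControl arrays and 6.78, 7.12 and 6.99 on the siRND3 arrays at 24 h. At 48 h it read 9.97 and 6.98. The groups were far apart at 24 h, and the siRND3 array at 48 h lay within the range of the siRND3 arrays at 24 h. The difference was -2.93 at 24 h, which leaves 13.2% of the siControl level. At 48 h it was -2.99 (95% interval -3.44 to -2.53, limma adjusted p 0.000405), with 12.6% left. The change between the times was -0.061 (95% interval -0.59 to 0.47, adjusted p 0.928), an interval that holds both a shallower and a deeper fall at 48 h.

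DDAH1 was read by 2 spots of 1 probe (A_23_P201386). The log2 values at 24 h were 8.15, 8.10 and 8.14 in siControl and 5.31, 5.32 and 5.20 in siRND3 cells, and at 48 h they were 8.01 and 4.60. All 3 siRND3 arrays at 24 h lay within a narrow band, and the array at 48 h lay below it. The difference was -2.86 at 24 h (13.8% left) and -3.42 at 48 h (95% interval -3.72 to -3.12, limma adjusted p 0.000141, 9.36% left). The change of -0.56 between the times (95% interval -0.91 to -0.21) did not pass the threshold over all probes (adjusted p 0.103). Within siRND3 cells DDAH1 fell by 0.68 from 24 h to 48 h (adjusted p 0.0128), against -0.12 in siControl cells (adjusted p 0.544). Of all probes 9.03% changed with time in siRND3 cells, 6.45% as lower and 2.59% as higher at 48 h, and 3.56% in siControl cells, 2.73% as lower and 0.824% as higher. The 2 spots disagreed about this step. One spot read 3.998 and the other 5.19 on the siRND3 array at 48 h, and the change of the fall was -1.08 by the first and -0.044 by the second. Under normexp background correction the change of the fall was -0.065, and the step within siRND3 cells (-0.18, adjusted p 0.196) no longer passed.

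MMGT1 showed the clearest growth with time. Its probe (A_23_P11224, 10 spots) read 11.63, 11.65 and 11.71 in siControl and 8.97, 9.02 and 9.07 in siRND3 cells at 24 h, and 11.87 and 8.13 at 48 h. The siRND3 array at 48 h lay below all siRND3 arrays at 24 h, and the siControl array at 48 h above all siControl arrays at 24 h. The difference went from -2.64 at 24 h (16.0% left) to -3.74 at 48 h (95% interval -4.04 to -3.45, limma adjusted p 0.000130, 7.47% left). The change of -1.10 (SE 0.14, 95% interval -1.44 to -0.76) passed the threshold (adjusted p 0.0262), as 2.73% of all probes did, 1.63% in this direction and 1.10% in the other. The 24 h values that chose the gene form part of this contrast. Most of the step came from the siRND3 side, where MMGT1 fell by 0.89 (adjusted p 0.00577), against a change of 0.21 in siControl cells (adjusted p 0.287). All 9 spots with a value at both times showed it, with changes between -1.17 and -0.93. The adjusted p rose above the threshold, to between 0.0506 and 0.0809, without siControl replicate 1, 2 or 3 or siRND3 replicate 2, while the change stayed between -1.12 and -1.07.

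CELF2 was the gene whose fall was smaller at 48 h than at 24 h. The brighter probe (A_23_P202071, 2 spots) read 9.22, 9.26 and 9.13 in siControl and 6.77, 6.36 and 6.76 in siRND3 cells at 24 h. At 48 h it read 8.57 and 6.36. The siControl array at 48 h was thus below the siControl arrays at 24 h, while the siRND3 array at 48 h lay at the lowest of the siRND3 arrays at 24 h. The other probe (A_23_P115645, 10 spots), for another CELF2 transcript, read 7.14, 7.03 and 7.11 in siControl and 4.005, 4.34 and 4.49 in siRND3 cells at 24 h, and 6.56 and 4.20 at 48 h. Both probes show the same order, with a lower siControl level at 48 h and little movement in siRND3 cells. The brighter probe differed by -2.57 at 24 h (16.8% left) and -2.20 at 48 h (95% interval -2.73 to -1.68, limma adjusted p 0.00135, 21.7% left). The other differed by -2.82 at 24 h (14.2% left) and -2.36 at 48 h (95% interval -2.91 to -1.82, limma adjusted p 0.00126, 19.4% left). The changes of 0.37 and 0.45 did not pass the threshold (adjusted p 0.515 and 0.437). Within siControl cells the CELF2 probes moved by -0.64 and -0.53 from 24 h to 48 h (adjusted p 0.110 and 0.169), and within siRND3 cells by -0.27 and -0.083 (adjusted p 0.386 and 0.810).

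**Figure D1:**
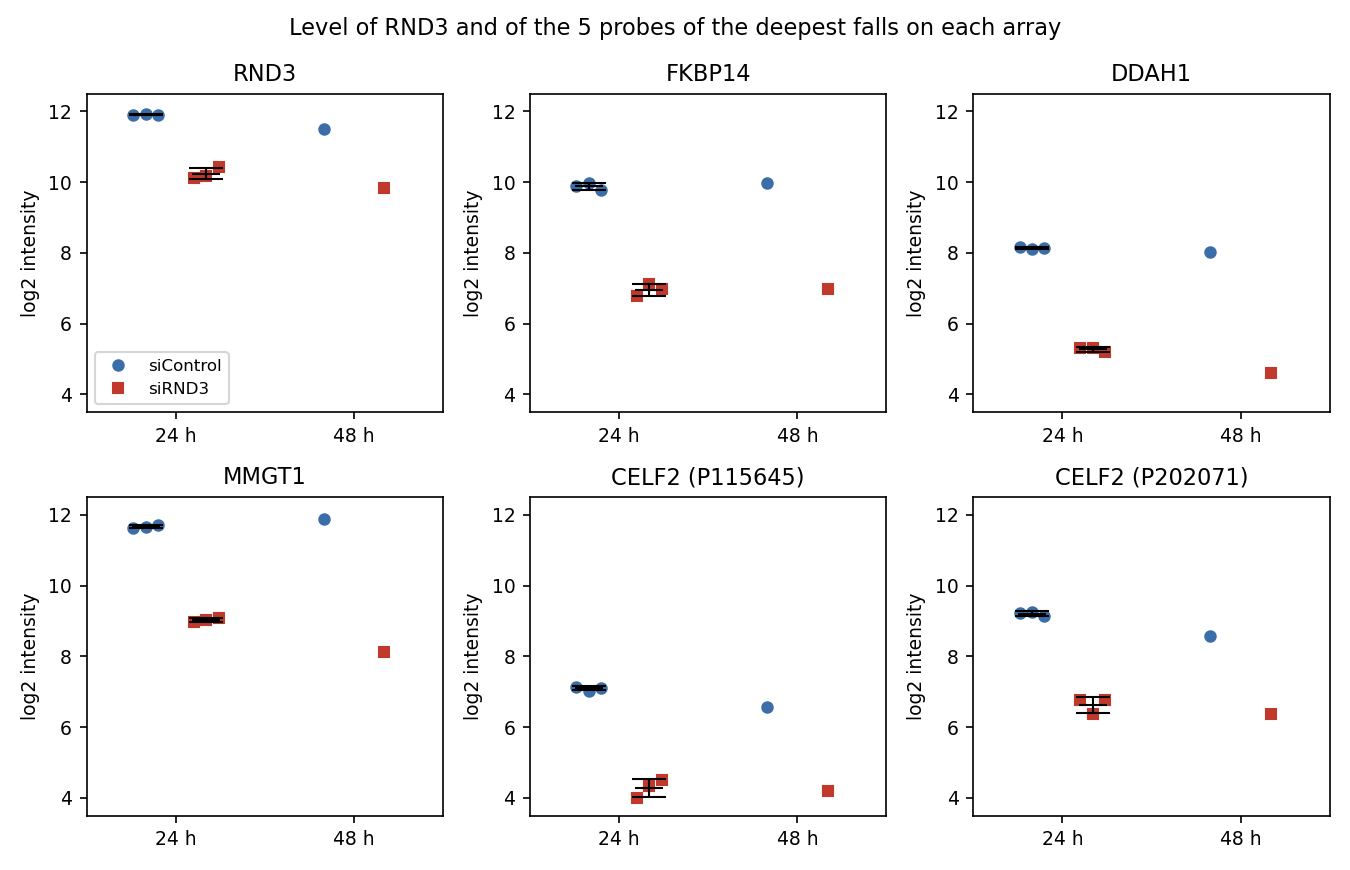
Log2 intensity (y axis) of RND3 and of the 5 probes for FKBP14, DDAH1, MMGT1 and CELF2 on each of the 8 arrays at 24 h and 48 h (x axis), with siControl as circles, siRND3 as squares and mean ± SD bars over the 3 arrays per group at 24 h. In every panel the siRND3 arrays lie below the siControl arrays at both times. At 48 h the siRND3 point drops further for MMGT1 (8.13) and DDAH1 (4.60) but not for FKBP14 (6.98). For RND3 both the siRND3 (9.84) and the siControl point (11.48) are lower at 48 h.

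All 5 probes were well above background on all 8 arrays, and the siRND3 and siControl arrays did not overlap for any of them at 24 h. The choice required this, and 14.0% of all probes with a value on all 6 arrays at 24 h lay wholly lower in siRND3 cells, as part of 34.4% without overlap in either direction. At 48 h, on arrays that had no part in the choice, all 5 probes passed the threshold as lower, against 9.19% of the 28759 probes tested. Among probes already called lower by more than 1 at 24 h this was common, with 369 of 414 called lower again at 48 h, and the spread behind the 48 h test comes from the 24 h arrays that the choice used. Each single spot kept the groups apart as well: the highest siRND3 spot lay below the lowest siControl spot of the same probe at 24 h and at 48 h. At 24 h the spots of MMGT1 agreed closely, with falls between -2.70 and -2.61, whereas those of the dimmer CELF2 probe ranged from -3.10 to -2.42. The siRND3 values of that CELF2 probe at 24 h lay near the dim end of the measurable range, where the lowest 5% of probes above background ended at log2 values between 3.91 and 4.13 on these arrays.

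**Figure D2:**
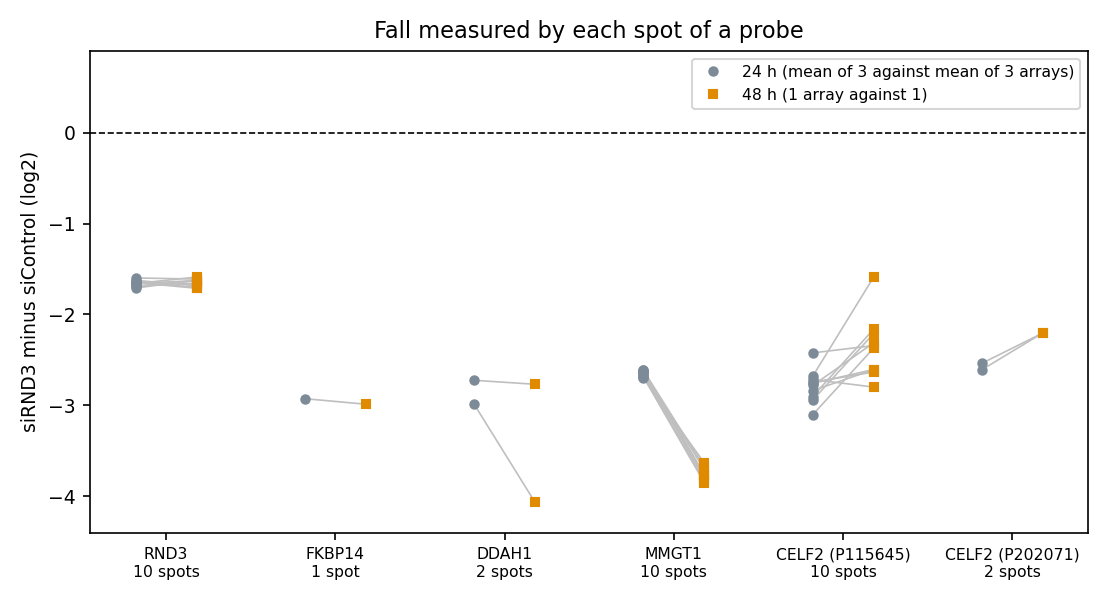
Difference between siRND3 and siControl on the log2 scale (y axis) from each spot of RND3 and of the 5 probes (x axis, with the number of spots), where grey circles are the 24 h means of 3 arrays, orange squares the single arrays at 48 h and lines join the same spot. The spots of RND3 stay level, those of MMGT1 all drop, with changes between -1.17 and -0.93, and the 2 DDAH1 spots part, with changes of -1.08 and -0.044.

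The 5 probes had more negative differences than RND3 at both times, with time courses that were not alike. At 24 h 113 of the 28759 probes tested had a more negative difference than RND3, and between 12 and 23 had one more negative than the 5 probes. At 48 h the count rose to 584 for RND3, with 75 for FKBP14, 45 for DDAH1, 29 for MMGT1 and 233 and 178 for the brighter and dimmer CELF2 probe. The 95% intervals of FKBP14, DDAH1 and MMGT1 at 48 h lay wholly below that of RND3 (-2.04 to -1.25), and those of both CELF2 probes overlapped it. This order depended on how background was treated. Under normexp correction the dimmer CELF2 probe differed by -1.19 at 24 h and -0.87 at 48 h, less than RND3 at -1.60 and -1.56, and DDAH1 by -1.69 and -1.76. FKBP14 at -2.36 and -2.42 and MMGT1 at -2.46 and -3.39 remained deeper than RND3 there, while the brighter CELF2 probe at -1.998 and -1.58 was deeper at 24 h and level with it at 48 h.

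**Figure D3:**
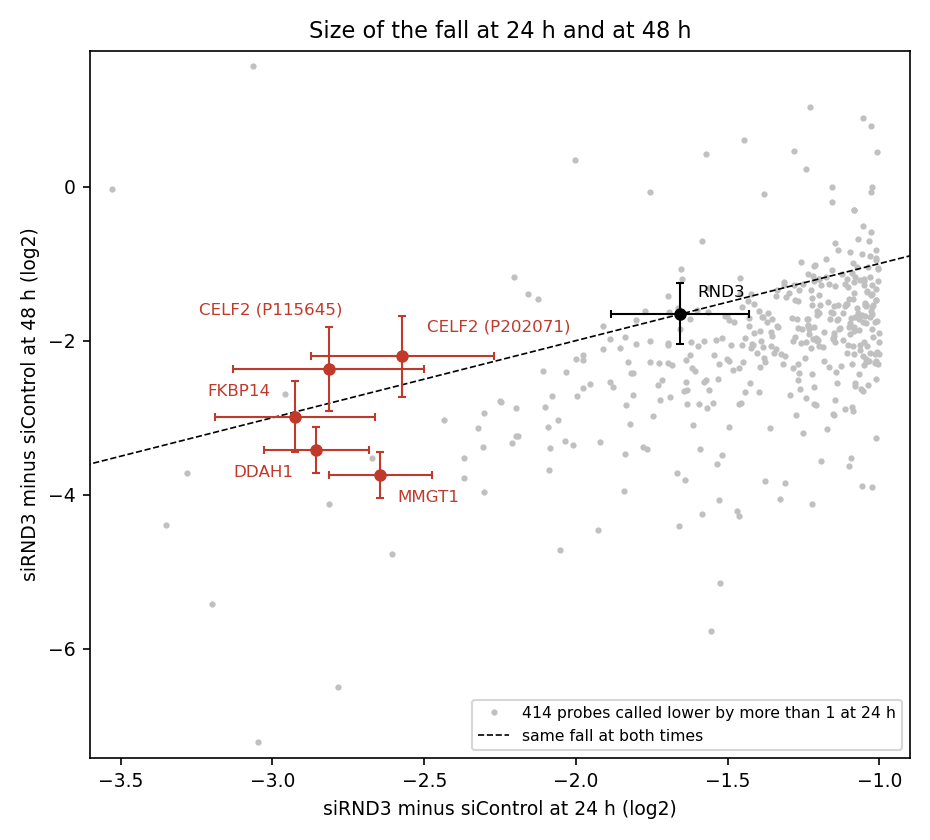
Difference between siRND3 and siControl at 24 h (x axis) and at 48 h (y axis), both on the log2 scale, for RND3 (black) and the 5 probes (red) with 95% intervals, over the 414 probes called lower by more than 1 at 24 h (grey), with a dashed line of equal falls. RND3 (-1.66 and -1.65) and FKBP14 (-2.93 and -2.99) lie on the line, MMGT1 (-2.64 and -3.74) lies below it and both CELF2 probes lie above it.

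A fall that grows with time was the common course in these cells. Of the 414 probes called lower by more than 1 at 24 h, which include RND3 and the 5 probes, 350 (84.5%) had a more negative difference at 48 h, with a median change of -0.62 (quartiles -1.07 and -0.20). The change passed the threshold as deeper in 97 of them and as shallower in 4. MMGT1 stood on the growing side of this distribution, with 23.9% of the 414 probes changing more. DDAH1 stood near its middle, with 55.3% changing more. FKBP14 and RND3 were on the constant side, with 81.6% and 84.8% of these probes deepening more than they did. For the CELF2 probes the shares were 92.5% and 93.5%. Among the 46 probes called lower by more than 2 at 24 h the share with a deeper fall at 48 h was 80.4%. With 1 array per treatment at 48 h, a deviation of either array enters all of these changes.

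**Figure D4:**
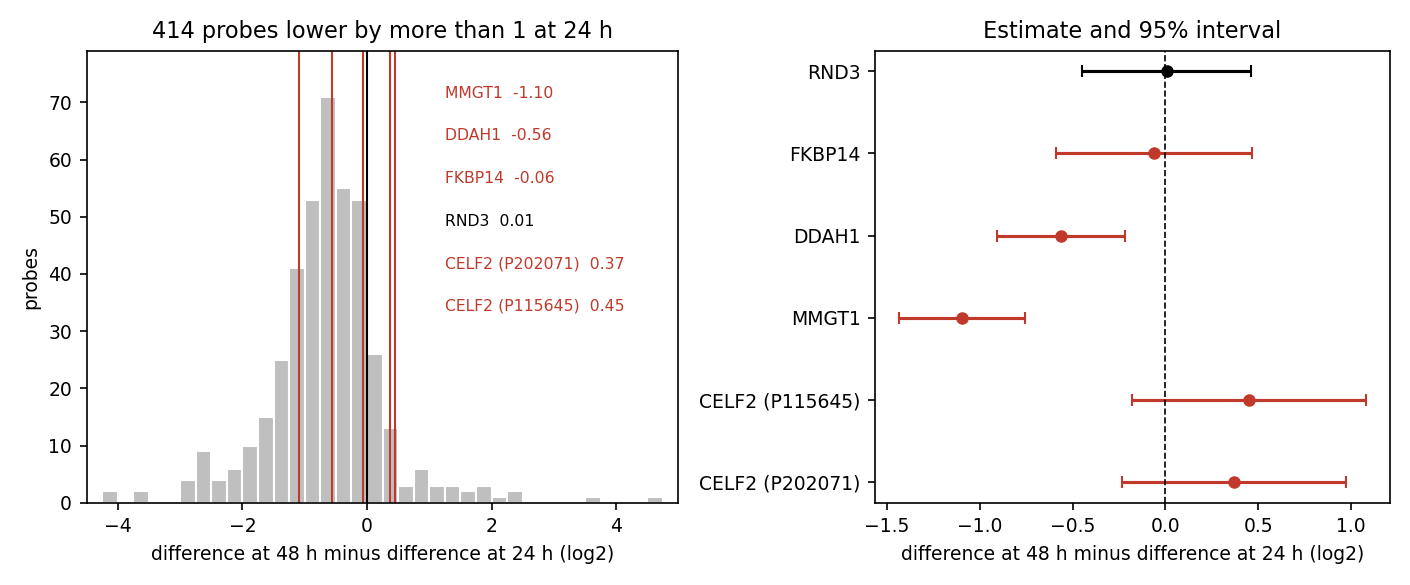
Left, histogram of the difference at 48 h minus the difference at 24 h (log2, x axis) over the 414 probes called lower by more than 1 at 24 h (y axis, number of probes), with vertical lines at RND3 (black) and the 5 probes (red). Right, the same change for each with its 95% interval, in which MMGT1 (-1.10) and DDAH1 (-0.56) lie below 0 and the intervals of RND3, FKBP14 and both CELF2 probes include it.

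The order of the falls continued without a gap beyond the 4 genes. BIRC3, an inhibitor of apoptosis, stood between DDAH1 and MMGT1 with a difference of -2.78 at 24 h. At 48 h its siRND3 signal was not well above background, so that BIRC3 was at least 41.6-fold lower there. CELF2 (-2.57) was the last gene inside the choice, and CTSB, the lysosomal protease cathepsin B (-2.43), the first outside. SLC31A1, the cell surface importer of copper, followed with -2.37, ST3GAL2, a sialyltransferase, with -2.30 and PTBP3, a splicing regulator, with -2.21. The conditions of the choice also shaped the order. Of 16 called probes deeper than the brighter CELF2 probe at 24 h, 5 did not meet them, among them probes of GATM, ARHGAP6 and CSF2, named here after their values were seen. Over all probes, 12 that met the same conditions fell at least as far as the brighter CELF2 probe, and 11 of them had a gene symbol, for 10 genes in all. Beside BIRC3 and the 4 genes these were SINHCAF (-3.35), YME1L1 (-3.28), TMEM64 (-3.20), SUB1 (-2.81) and TFPI (-2.61), of which all but SUB1 are named here after their values were seen. A different probe of SINHCAF read -2.06 and one of TMEM64 read -1.07. In siControl cells at 24 h the deep probes of TFPI (11.12 against 10.21) and TMEM64 (7.85 against 7.28) were brighter than the ranked ones. Those of SINHCAF, YME1L1 and SUB1 were dimmer. The probe used in the ranking read -0.24 for YME1L1, which encodes a mitochondrial protease (adjusted p 0.120), -0.01 for SUB1, a transcription cofactor (adjusted p 0.915), and -0.35 for TFPI, an inhibitor of coagulation (adjusted p 0.0382). FKBP14, DDAH1 and MMGT1 have no other probe against which their falls could be checked.

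The relatives and partners of the 4 genes mostly differed far less between the treatments. FKBP2, FKBP7, FKBP9, FKBP10 and FKBP11, which are also FKBP isomerases of the ER, differed by between -0.096 and 0.060 at 24 h on their brighter probes, and none passed. Among the 14 genes of the FKBP family tested beside FKBP14 limma called none at 24 h, with 1 at an unadjusted p under 0.05, and SAM called none. The median difference of that family was 0.016, against 0.037 over all 14805 genes tested, in which 9.26% were called lower and 7.16% higher. At 48 h FKBP5, a co-chaperone of steroid receptors, was higher in siRND3 cells by 1.16 (limma adjusted p 0.0121). Its level was dim (4.84 in siControl cells at 24 h). From 24 h to 48 h it moved by -0.78 in siControl and by 0.14 in siRND3 cells, and neither passed (limma adjusted p 0.0664 and 0.642). DDAH2, the paralog of DDAH1, differed by -0.056 at 24 h (SE 0.086, adjusted p 0.720) and 0.20 at 48 h (SE 0.15, adjusted p 0.442).

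The other EMC subunits gave a mixed picture around MMGT1. Of 9 tested, EMC6, which sits beside EMC5 in the complex, was the only one to pass at 24 h, and it rose, by 0.82 (SE 0.08, adjusted p 0.00158) and at 48 h by 1.36 (adjusted p 0.00126). EMC1 rose by 0.50 at 48 h (adjusted p 0.0416) on one probe and differed by -0.21 on its other. EMC2, EMC3, EMC4, EMC7, EMC8, EMC9 and EMC10 differed by between -0.16 and 0.12 at 24 h and between -0.33 and 0.29 at 48 h, and none passed. The median over the 9 subunits was 0.024 at 24 h, and turned to -0.032 without siControl replicate 2 and to -0.011 without siRND3 replicate 3.

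**Figure D5:**
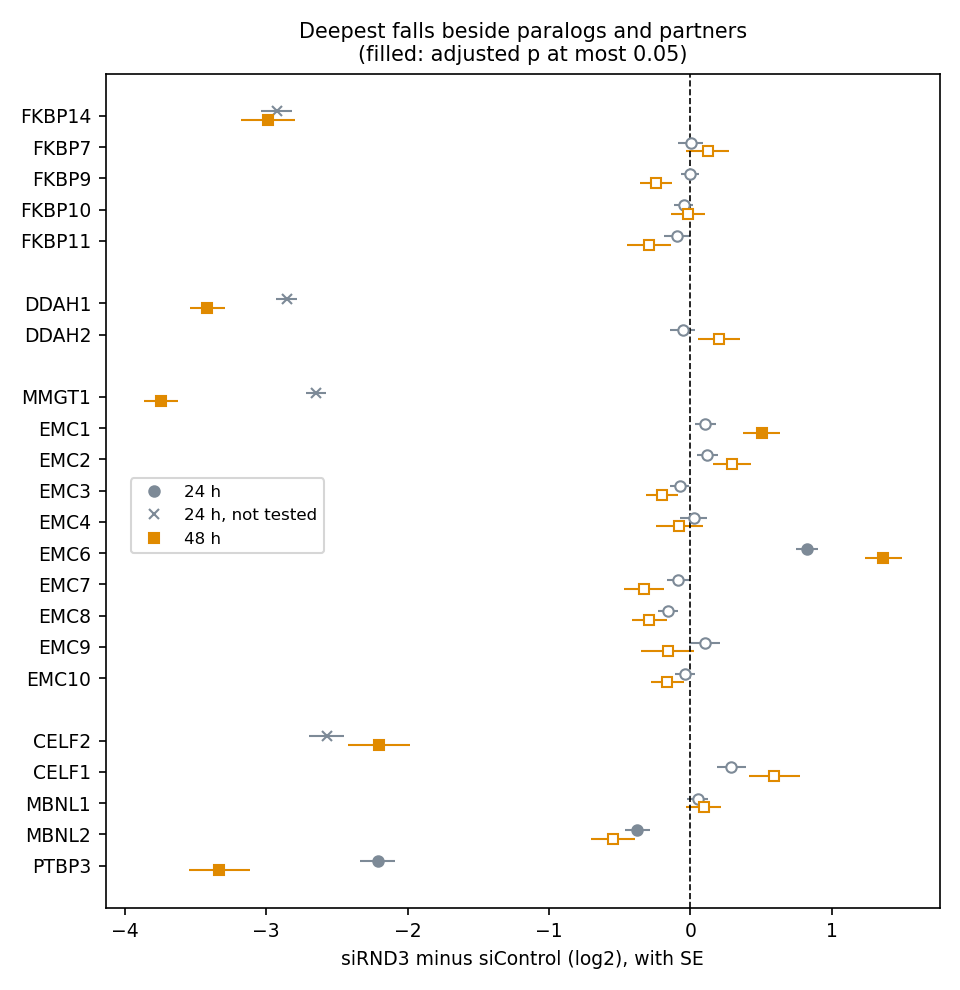
Difference between siRND3 and siControl on the log2 scale with its SE (x axis) at 24 h (grey) and 48 h (orange) for FKBP14, DDAH1, MMGT1 and CELF2 and, under each, paralogs and partners, on the brightest probe of each gene. Filled symbols passed an adjusted p of 0.05, open symbols did not and crosses were not tested; PTBP3 (-2.21) falls, EMC6 rises (0.82) and the other genes drawn under the 4 lie between -0.37 and 0.29 at 24 h.

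Among the other genes for collagen folding and modification in the ER, 2 of 21 were lower at 24 h and none higher, against 9.26% and 7.16% of all genes. P3H4, a partner of the collagen-modifying hydroxylases, fell by 1.89 at 24 h (SE 0.08, adjusted p 0.000143) and by 2.54 at 48 h (adjusted p 0.000275). MIA2, which helps export collagen, fell by 0.63 on its dimmer probe alone (adjusted p 0.00991), with 0.014 on the brighter one, and the dimmer probe no longer passed under normexp correction (-0.17, adjusted p 0.101). At 48 h 6 of the 21 were lower and 1 was higher, against 13.3% and 14.3% of all genes. TMEM38B, an ER cation channel, fell by 1.55, PLOD2, a lysyl hydroxylase, by 1.10 and P4HA1, a prolyl hydroxylase subunit, by 1.02, whereas MIA3 rose by 0.78. The list's median was -0.049 at 24 h and 0.0059 under scaling to the 75th percentile.

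In the pathway of ADMA and nitric oxide 1 of 21 genes beside DDAH1 was higher at 24 h and none lower, against 7.16% and 9.26% of all genes. NOSIP, which binds nitric oxide synthases, rose by 0.51 (adjusted p 0.0256), and this was lost without any of the siControl replicates. At 48 h 5 genes were higher and 1 lower, against 14.3% and 13.3% of all genes. The subunits of soluble guanylate cyclase, the receptor of nitric oxide, were among them, GUCY1B1 with a rise of 1.49 (adjusted p 0.00113) and GUCY1A1 with 1.05 (adjusted p 0.00521). The level of GUCY1A1 was dim (4.84 in siControl cells at 24 h). ARG2, an arginase, rose by 0.95 and PRMT6, an arginine methyltransferase, by 0.75, while ASS1, which makes arginine's precursor, fell by 0.69.

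Other factors of membrane insertion and of magnesium transport, the other role described for MMGT1, were counted in the same way. Of 20 insertion factors 4 were lower at 24 h and none higher, against 9.26% and 7.16% of all genes, led by TRAM1, a partner of the translocon, with -0.99 at 24 h and -2.12 at 48 h (adjusted p 0.00167 and 0.000626). UBL4A, of the tail-anchored protein pathway, fell by 0.61, SSR3, of the translocon-associated complex, by 0.45, and SSR1 by 0.36 on 1 of its probes. Of 15 genes of magnesium transport 3 were lower and 1 higher at 24 h, beside the same shares of all genes. TUSC3 fell by 0.49 (adjusted p 0.00677) and its paralog MAGT1 by 0.39 (adjusted p 0.0371), both subunits of the oligosaccharyltransferase. SLC41A1 fell by 0.31 and SLC41A3 rose by 0.50 (adjusted p 0.0481 and 0.00915). At 48 h 7 of the 15 were lower and 2 higher, against 13.3% and 14.3% of all genes. Leaving out single arrays in turn lost the 24 h calls of SSR3 and MAGT1 in 5 of 6 cases each those of SLC41A1 and SSR1 in 6 of 6 and that of UBL4A in 3 of 6.

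Among 15 splicing regulators tested beside CELF2, 2 were lower and 1 was higher at 24 h, close to the 9.26% and 7.16% of all genes. PTBP3 fell on both of its probes, with differences of -2.21 and -2.08 at 24 h and -3.33 and -2.73 at 48 h. MBNL2, an antagonist of CELF proteins in splicing, fell by 0.37 at 24 h (adjusted p 0.0452), a call that no leave-one-out fit kept, and CELF4 rose by 0.67 from a dim level (adjusted p 0.0160), a difference of 0.084 under normexp correction. CELF1, the closest relative of CELF2, differed by 0.29 at 24 h (SE 0.10, adjusted p 0.131) and 0.59 at 48 h (SE 0.18, adjusted p 0.0684), and MBNL1 by 0.050 and 0.094. Of the 13 genes of the RNA interference machinery none was lower at 24 h and 1 was higher, against 9.26% and 7.16% of all genes. That gene was TNRC6C, through a dim probe (1.51). AGO2, the Argonaute that cuts siRNA targets, differed by 0.099 at 24 h (adjusted p 0.502) and -0.071 at 48 h (adjusted p 0.827). At 48 h DICER1, which processes small RNAs, fell by 0.96 and DROSHA, which cuts microRNA precursors, rose by 0.78.

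Over the 8 arrays FKBP14, DDAH1 and MMGT1 each had another of the 4 genes as the nearest. CELF2 was ranked by its brighter probe only, which had none of them among its 3 nearest. Likeness was taken as the root mean square difference between the log2 deviations of 2 probes from their siControl mean at 24 h, over 18565 probes with a gene symbol, so that it rests in part on the 24 h depth that chose the genes. With CELF2 taken by its brighter probe, the smallest distance among the 4 genes joined DDAH1 and MMGT1 (0.18) and the largest MMGT1 and CELF2 (0.41). FKBP14 was nearest to the dimmer CELF2 probe (0.25), DDAH1 (0.26) and MMGT1 (0.30). SUB1 (0.22) followed MMGT1 in the order for DDAH1, and SUB1 (0.21) and SLC31A1 (0.22) came after DDAH1 in that for MMGT1. CELF2 by its brighter probe was nearest to CTSB (0.27), to ABCB10, a mitochondrial transporter (0.31), and to PRXL2A, a redox protein (0.31).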

How the data were processed

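Per the file headers, the authors' arrays were read with Agilent Feature Extraction 10.7.3.1, and the deposited spot intensity is background-corrected within each array. The authors also deposited log2 values, quantile-normalised per their methods, used here as an alternative. Control spots were left out, log2 processed intensity was quantile-normalised over 8 arrays, outlier spots (0.364% to 0.530%) were removed and the spots of a probe averaged. A probe was well above background where at least 50% of its spots were so marked. Probes above background on all 3 arrays of a group at 24 h were tested (28759). Symbols came from RefSeq accessions (GRCh38.p14, 25422 probes matched); the arrays were annotated on hg19. Tests used limma 3.58.1 in R 4.3.3 with Benjamini-Hochberg adjustment over all probes at 0.05, on 6 arrays at 24 h and in a 4-group model over 8 arrays for 48 h and the change between the times. The number of arrays limits the precision. No saturated spot was found.

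The 4 genes, the gene lists and the rule for named genes (RND3, the 4 genes, their neighbours in the order of fall, paralogs and partners, up to 3 called genes per list and direction, and the most alike genes) were chosen with earlier results of these data known. Alternatives were scaling to the 75th percentile, normexp with an offset of 50 on the spot median, the deposited log2 values, no or a stricter filter, the 6 arrays normalised alone, SAM at a false discovery rate of 5%, the replicate number as a block and each array at 24 h left out. The fits were tested on simulated data.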

Additional observations from a re-analysis of the deposited data

Results flagged for a closer look

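Among the genes named by the rule above, the effect of siRND3 differed between 24 h and 48 h for 5 probes by the limma test of that difference. Each of the 5 changed in the deeper direction, and 2.73% of all probes passed this test in either direction. MMGT1 changed by -1.10 (adjusted p 0.0262), BIRC3 by -3.71 (adjusted p 0.0165), SLC31A1 by -1.16 (adjusted p 0.0403), TRAM1 by -1.13 (adjusted p 0.0375) and SUB1 by -1.30 (adjusted p 0.0375). The 24 h values that ranked MMGT1, BIRC3, SLC31A1 and SUB1 by depth form part of that difference. At 48 h the siRND3 signal of BIRC3 did not clear background, and its change was -1.09 under normexp correction. The other SLC31A1 probe changed by -0.81 (adjusted p 0.256). Leaving out any one of the siControl replicates took each of these 5 calls past 0.05, with adjusted p between 0.0513 and 0.104, while no direction turned. Some genes that the text names outside that rule passed the same limma test. TMEM38B changed by -1.22 (adjusted p 0.0289). In the other direction, GUCY1B1 changed by 1.19 (adjusted p 0.0272) and PRMT6 by 0.73 (adjusted p 0.0496).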

How the results depend on the processing

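The fall of RND3, and that of all 5 probes at 48 h, kept its direction and its side of the threshold under every alternative run, though leaving out arrays at 24 h cannot move the difference at 48 h and changes its error only. The depth at 24 h moved with the treatment of background: under normexp correction and with the deposited values it was -2.36 and -2.63 for FKBP14, -1.69 and -2.12 for DDAH1, -2.46 and -2.54 for MMGT1, -1.998 and -2.25 for the brighter and -1.19 and -1.68 for the dimmer CELF2 probe. The change of MMGT1 was -1.10 with the replicate number as a block (adjusted p 0.115) and between -1.12 and -1.07 when single arrays were left out.

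The count of called probes at 24 h (3350) was 1651 with the replicate block and between 1379 and 2574 without 1 array. At 48 h the block gave 3505 in place of 5452. The 785 probes whose fall changed between the times became 1300 under normexp, 0 with the block (4798 at an unadjusted p under 0.05) and between 7 and 273 without 1 array. For time within siControl the count of 1023 became 1565 under normexp, 0 with the block (4516 at an unadjusted p under 0.05) and between 73 and 905 without 1 array, and within siRND3 the count of 2598 became 1 with the block and between 1446 and 2394. Deviations of arrays with the same replicate number correlated at r 0.0020, -0.012 and 0.13, so the numbers were not taken to pair the samples, and the block also spends degrees of freedom.

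Medians of gene lists at 24 h under scaling to the 75th percentile were 0.051 for FKBP genes, 0.0059 for collagen folding and -0.11 for magnesium transport. Without 1 array they ran from 0.0091 to 0.044 (FKBP genes), -0.066 to -0.012 (collagen folding), -0.032 to 0.064 (EMC), -0.17 to -0.078 (magnesium transport) and -0.064 to 0.040 (RNA interference). At 48 h scaling to the 75th percentile gave 0.069 for FKBP genes, and normexp and the deposited values gave -0.052 and -0.054 for collagen folding, 0.16 and 0.22 for nitric oxide, -0.27 and -0.30 for magnesium transport, 0.13 and 0.14 for splicing regulators and -0.23 and -0.27 for RNA interference, with -0.12 under normexp for the EMC. By Pearson correlation over the 8 arrays 0 of the 3 most alike genes were shared for each of FKBP14, DDAH1, MMGT1 and CELF2. Dim siRND3 signals limit how far the falls of DDAH1 and of the dimmer CELF2 probe can be sized.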
